A study of Homo sapiens with 10 samples.

Results

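Rb occupancy was examined at the promoters of 9 genes of homologous recombination, BRCA1, BRCA2, PALB2, BARD1, RAD51C, RAD51AP1, BRIP1, RAD54L and XRCC2, chosen by name, with earlier results of these data known, for products that bear on the response of serous ovarian cancer to PARP inhibitors. They were 9 of the 19962 protein-coding genes annotated on chromosomes 1 to 22 and X. A peak was assigned to a gene when it overlapped, by at least 1 bp, the stretch from 2000 bp before to 500 bp after any of the gene's annotated transcript starts. Within those genes, peaks were taken by position only. It found 74 of the 87112 peaks of the 8 Rb libraries and none of the peaks of the 2 control libraries. The assay was CUT&RUN: a nuclease brought to the protein by an antibody cuts the DNA nearby, and the released DNA is sequenced. It was applied to 2 established lines of high-grade serous ovarian cancer, OVCAR-3 and Kuramochi, both labelled wild type. That label is not taken here to describe BRCA1, BRCA2 or any other member, whose sequence in the lines was not examined. Each line was given either INX-315, which inhibits CDK2, at a dose of 300 nM, or the same volume of its solvent DMSO, and was collected after 2 days. Each of the 4 groups had 2 Rb libraries, and each line had 1 library with an isotype antibody (IgG2a), made from DMSO-treated cells only, so that the INX-315 libraries had no IgG2a control of their own treatment. The IgG2a lists held only 257 peaks in OVCAR-3 and 195 in Kuramochi, 25 and 12 of them on chromosomes 1 to 22 and X. With lists so short, the absence of a control peak at the 9 promoters says little about specificity.

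Homologous recombination copies an intact sister chromatid to repair a double-strand break. BRCA1 and its partner BARD1 promote resection of the broken ends, PALB2 links BRCA1 to BRCA2, and BRCA2 acts on the resected single-stranded DNA. RAD51C and XRCC2 are subunits of the BCDX2 complex, RAD51AP1 and RAD54L act during strand invasion, and BRIP1 is a helicase that binds BRCA1. Many of these genes are transcribed mainly in S and G2 phase. Rb, the retinoblastoma protein, binds E2F transcription factors at the promoters of such genes when it is hypophosphorylated, and cyclin-dependent kinases including CDK2 release it by phosphorylation. The comparison of INX-315 with DMSO asks where Rb sits on chromatin once CDK2 is inhibited.

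Rb peaks lay at the promoters of 7 of the 9 genes in both DMSO libraries of each line, against 26.8% of all protein-coding genes in OVCAR-3 and 24.9% in Kuramochi. They lay at all 9 in both INX-315 libraries of each line, against 55.5% and 53.2%. PALB2 was called only under INX-315, and RAD51C nearly so. Of all genes, 16.2% in OVCAR-3 and 14.0% in Kuramochi were in both INX-315 lists and neither DMSO list. With the lists of a line cut to equal length, neither PALB2 nor RAD51C was called in both INX-315 libraries of either line. The other 7 genes had a peak in all 8 libraries, and their summits were 1.97- to 3.28-fold higher under INX-315 when both lines were fitted together. BRCA1 enters that range at its higher peak, which under INX-315 lay at a start 44881 bp upstream, at the NBR1 promoter. At its canonical start alone it rose by 0.83 on the log2 scale. The increase was not particular to the 7 genes, since 99.7% of all promoters tested were higher by the same test. With each library centred on its median, none of the 7 was higher and RAD51AP1 was lower, against 4.81% and 9.20% of all promoters tested. Read at its canonical start only, BRCA1 also passed as lower on that scale, where 9.51% of genes were lower. BARD1, BRIP1 and RAD54L carried the tallest peaks of the set, and RAD54L was lower in OVCAR-3 than in Kuramochi.

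The deposited lists give peaks but no read totals. The genome-wide mean recovered from each list was 0.216 to 0.501 fragments per base in the Rb libraries, and the lists held 5221 to 8794 peaks under DMSO and 13031 to 17281 under INX-315. The INX-315 lists were therefore longer in both lines, whereas their genome-wide mean was in no case above that of the deepest DMSO library of the line. Summit height is given below as the number of fragments at the summit divided by the genome-wide mean of the library. That number could be recovered for no less than 99.7% of peaks in any Rb library. The whole set rests on small numbers, from 6 to 125 fragments at the highest promoter peak of a gene, and intervals given for them are exact 95% Poisson intervals that cover counting error only. The 2 libraries of a group came from 1 experiment with biological replicates. The p-values below rest on the spread between those, pooled by the model (limma) over genes of similar height. They are therefore not a measure of each gene's own spread. They do not allow for a shift common to all promoters of a library. In the fit of both lines together, the difference in the effect of INX-315 between the lines also enters the spread. The identity of the lines could not be checked from Rb peaks.

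The summits lay close to the transcript starts. The median summit was 17 bp before the canonical start of BARD1 and 101 bp before that of RAD54L. It lay 29 bp after the start of BRCA1, 67 bp after that of RAD51AP1, 78 bp after that of PALB2, 127 bp after that of XRCC2, 141 bp after that of BRIP1, 145 bp after that of RAD51C and 186 bp after that of BRCA2. By annotation the median summit fell in an intron of BRCA2, RAD51AP1 and XRCC2, in a coding exon of RAD51C, in a UTR of BRCA1, PALB2 and BRIP1, and upstream of BARD1 and RAD54L. In the map of peak extents the bars of a gene lie over the same stretch in both lines and mostly reach across the start.

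**Figure D1:**
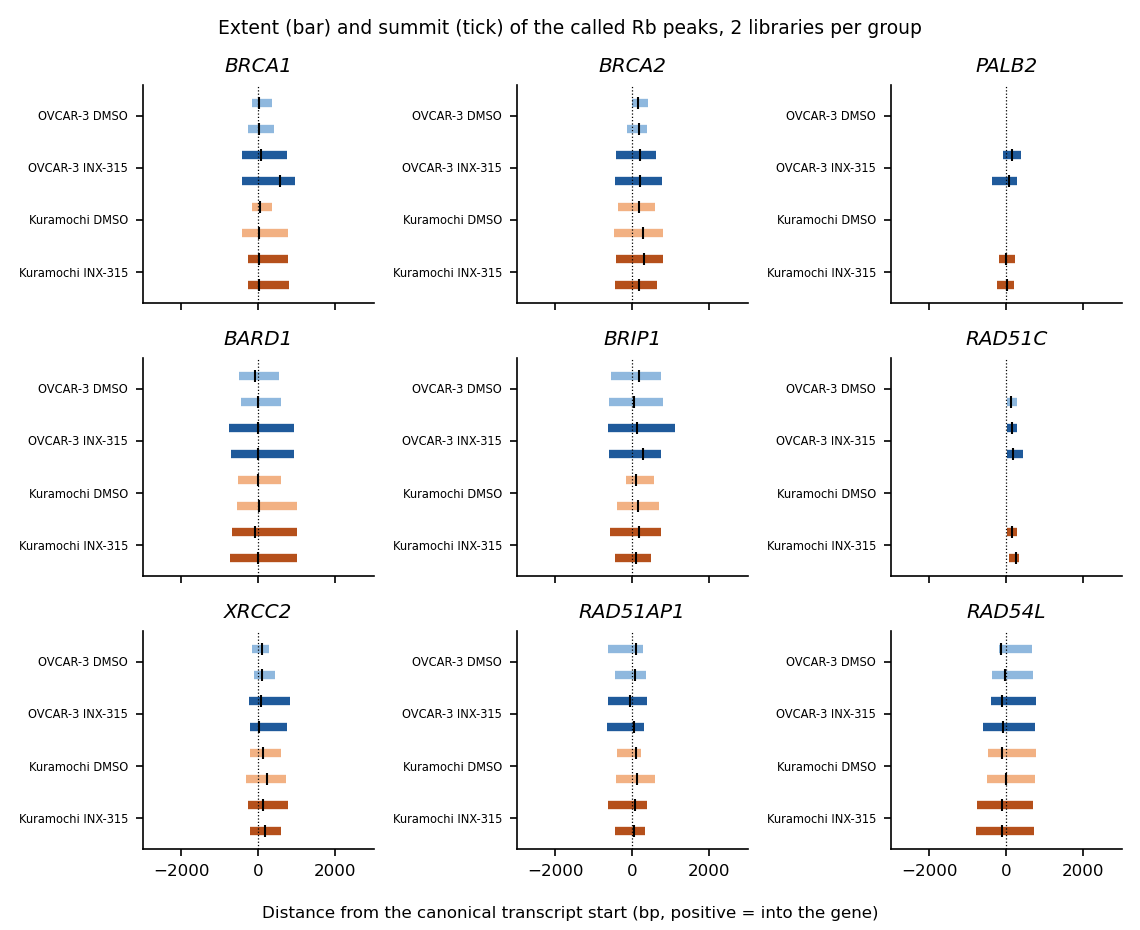
Called Rb peaks at the 9 promoters, as distance in bp from the canonical transcript start (x axis), with 1 bar per peak, a tick at its summit and 2 libraries for each of the 4 groups (y axis, colour). PALB2 has bars in the INX-315 libraries only, RAD51C has 1 DMSO bar, in OVCAR-3, and the BRCA1 peaks at a start 44881 bp upstream lie outside the plotted range.

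E2F factors recognise a short GC-rich string, so the 200 bp around each median summit were searched on both strands for TTTCCCGC, TTTGGCGC, TTTCGCGC and TTTGCCGC, and for the same strings without their first T (a form that every longer match also contains). The longer form was found in 1 of the 9 windows, that of RAD51C, against 6.83% of 3074 distinct windows around the summits of all genes with a promoter peak in all 8 libraries. The shorter form was found in 5 of the 9, those of BRCA1, BARD1, RAD51C, RAD51AP1 and RAD54L, against 24.8% of all windows. The CHR string TTTGAA was found in RAD51C only, against 4.26%, and CCAAT in RAD54L and XRCC2, against 23.8%. The sets are not quite alike, since RAD51C and PALB2 lacked a peak in some libraries. None of the 7 members with a peak in all 8 libraries held the longer E2F form or the CHR string. Member windows were also taken near the canonical start, and those of all genes at the highest promoter peak. A match is a string and not a mapped binding site, and the windows of all genes were GC-rich, with a median of 69% GC and 20 CpG.

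The stretches that hold the E2F strings are shown because they lie within the 200 bp around the median Rb summits. The strings lay between 96 bp before the median summit (RAD51C) and 94 bp after it (BARD1). Each stretch is written 5′ to 3′ on the strand of the gene, from GRCh38, with the string, or its reverse complement, in capitals. They lie at chr17:43125394-43125423 (BRCA1, minus strand), chr2:214809662-214809691 and chr2:214809600-214809629 (BARD1, minus strand), chr12:4538858-4538887 (RAD51AP1, plus strand), chr17:58692647-58692676 (RAD51C, plus strand, first string), chr17:58692686-58692799 (RAD51C, second string) and chr1:46247562-46247687 (RAD54L, plus strand).
BRCA1: caacggaaaagcGCGGGAAttacagataaa
BARD1 first string: gccgtcccagacGCGGGAAgagcttggccg
BARD1 second string: gtttcccgaggcttccttgcTTCCCGCtct
RAD51AP1: tctggttttggGCGGGAAttgaaaccgccg
RAD51C first string: cGCGGGAAgacgttccgctttgaaatgcag
RAD51C second string: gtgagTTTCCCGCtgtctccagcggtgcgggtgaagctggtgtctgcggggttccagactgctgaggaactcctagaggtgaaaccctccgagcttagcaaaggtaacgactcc
RAD54L: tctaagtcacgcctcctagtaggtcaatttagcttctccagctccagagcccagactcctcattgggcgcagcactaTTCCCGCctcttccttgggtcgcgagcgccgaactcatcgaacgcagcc

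The string of BRCA1 began 47 bp before the canonical start, that of RAD51AP1 21 bp before it and that of RAD54L 124 bp before it. Those of BARD1 began 4 and 74 bp after its start and those of RAD51C 46 and 89 bp after it. The windows of BRCA2, XRCC2, BRIP1 and PALB2 held none of the E2F strings. Among these, BRIP1 had the highest mean height of the set relative to all promoters, at percentile 94.9. BRCA2 and XRCC2, whose Rb peaks ranked above that of BRCA1 by mean height, are shown for contrast. The parts of the BRCA2 and XRCC2 windows outside any UTR are at chr13:32315668-32315793 (BRCA2, plus strand) and chr7:152675914-152676040 (XRCC2, minus strand).
BRCA2: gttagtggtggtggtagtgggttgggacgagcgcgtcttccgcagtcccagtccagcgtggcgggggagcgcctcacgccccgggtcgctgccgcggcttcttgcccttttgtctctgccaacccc
XRCC2: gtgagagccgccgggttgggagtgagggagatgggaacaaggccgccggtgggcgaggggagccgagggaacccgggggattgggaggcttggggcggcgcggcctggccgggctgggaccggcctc

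Whether a promoter was occupied at all was read from presence in both libraries of a group. Under DMSO, 7 of the 9 genes were bound in OVCAR-3, where 26.8% of all protein-coding genes were bound, and the same 7 in Kuramochi, where 24.9% were. Under INX-315 all 9 were bound in OVCAR-3, against 55.5% of all genes, and all 9 in Kuramochi, against 53.2%. A gene was called gained in a line when both INX-315 lists and neither DMSO list held a promoter peak. PALB2 was gained in OVCAR-3, where 16.2% of all genes were gained, and PALB2 and RAD51C were gained in Kuramochi, where 14.0% were. Presence in 2 against 2 libraries of 1 line cannot reach significance. Over both lines, PALB2 had a peak in 4 of 4 INX-315 and 0 of 4 DMSO libraries (two-sided exact permutation of the treatment within lines, p = 0.0556, the smallest that these 36 arrangements allow), and RAD51C in 4 of 4 and 1 of 4 (exact permutation p = 0.167), a test added after the data had been seen. When each list was shortened to the length of the shortest Rb list of its line, no member was gained in either line, 6 were bound under INX-315 in OVCAR-3 and 7 in Kuramochi, PALB2 and RAD51C being absent from both counts and XRCC2 from the first.

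The tumour suppressor BRCA1 has 2 places of Rb occupancy under the promoter rule. One is the canonical start, at chr17:43125364, which it shares with a non-coding gene on the other strand. The other is an annotated BRCA1 transcript start at chr17:43170245, 44881 bp upstream, which lies at the promoter of the neighbouring gene NBR1 and beside the pseudogene BRCA1P1. The 2000 bp around the upstream start share 1.98% of their 31-base words with the 2000 bp around the canonical start, and the longest common stretch is 46 bp. Both values count exact matches only, and whether reads of 1 region were placed at the other was not tested. At the canonical start the height reached 22.2 and 27.9 in OVCAR-3 given DMSO and 52.2 and 45.2 with the inhibitor. In Kuramochi the DMSO values were 24.7 and 63.2 and the INX-315 values 59.3 and 69.5. The OVCAR-3 groups did not overlap at this start, whereas in Kuramochi DMSO replicate 2 lay between the INX-315 libraries. Here and for the genes below, treatment groups that lie apart are not read as a trait of the gene. By the limma test, a different measure, 99.7% of all promoters tested were higher under INX-315. The share of all genes with groups apart was not counted. At the upstream start the height was 18.2 and 31.9 in OVCAR-3 given DMSO and 88.1 and 92.7 in OVCAR-3 given INX-315. There the Kuramochi values were 31.5 and 50.0 with the solvent and 69.2 and 78.7 with the inhibitor, and the groups of both lines were apart. The upstream peak was the higher one in all 4 INX-315 libraries and in 2 of the 4 DMSO libraries. The values for BRCA1 that follow take the higher peak in each library unless the canonical start is named.

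By that rule BRCA1 stood at 22.2 and 31.9 in OVCAR-3 given DMSO and 88.1 and 92.7 in OVCAR-3 given INX-315. Its height was 27.1 ± 6.84 (SD, n = 2) and 90.4 ± 3.28 (SD, n = 2). With DMSO Kuramochi gave 31.5 and 63.2, and with INX-315 it gave 69.2 and 78.7, with means of 47.3 ± 22.4 (SD, n = 2) and 73.9 ± 6.78 (SD, n = 2). The treatment groups did not overlap in either line, and the gap was wide in OVCAR-3 and narrow in Kuramochi. BRCA1 was the lowest of the 7 genes tested, at percentile 37.3 of mean height among all promoters tested.

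BARD1, the obligate partner of BRCA1 in its ubiquitin ligase, had one of the tallest peaks, at percentile 94.3. Its height reached 72.8 and 73.8 in OVCAR-3 given DMSO and 179 and 257 with the inhibitor. The Kuramochi DMSO libraries stood at 85.4 and 134, and those with the inhibitor at 227 and 283. Every INX-315 library was above every DMSO library across both lines. The peak rested on 36 to 51 fragments under DMSO and 55 to 108 under INX-315, and it overlapped the promoter of no other protein-coding gene.

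BRCA2 shares its promoter with ZAR1L, which is transcribed from the other side. BRCA2 had heights of 20.2 and 39.9 in OVCAR-3 given DMSO and 84.8 and 99.9 in OVCAR-3 given INX-315. In Kuramochi the DMSO values were 44.9 and 76.4 and the INX-315 values 161 and 236. The groups were apart in both lines, and the OVCAR-3 DMSO library with 20.2 rested on 10 fragments (95% interval 4.80 to 18.4). The 2 lines stood in the same order under both treatments, with Kuramochi above OVCAR-3 in every pairing of libraries within a treatment.

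PALB2, which bridges BRCA1 and BRCA2, was in none of the 4 DMSO lists. With the inhibitor its OVCAR-3 heights were 35.9 and 28.5 and its Kuramochi heights 34.6 and 46.3. These are low values that rest on 10 to 14 fragments, near the middle of their own lists at percentiles 43.3 to 52.9 of fold enrichment. A promoter outside a list has no height in the files. The lowest summits called in the DMSO lists over a local background near the mean stood at 9.97 to 11.2 multiples, or 4 to 5 fragments, so lower occupancy of PALB2 under DMSO was not detectable at this depth. In Kuramochi the limit at this promoter may lie higher, since its local background under INX-315 was 1.72 and 1.70 times the genome-wide mean. The PALB2 peak also overlapped the promoter of DCTN5, a dynactin subunit gene that starts beside it on the other strand.

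RAD51C, a subunit of the BCDX2 and CX3 complexes, had low peaks throughout. It had no peak in 3 of the 4 DMSO libraries and a height of 17.9 in OVCAR-3 DMSO replicate 2, from 9 fragments (95% interval 4.12 to 17.1). With the inhibitor its OVCAR-3 heights were 35.9 and 35.7 and its Kuramochi heights 29.6 and 27.8. The lone DMSO value was below every INX-315 value, but the call in Kuramochi INX-315 replicate 2 rested on 6 fragments, with an upper 95% limit of 13.1. The promoter is shared with TEX14 and IGBP1C. RAD51C was the member with the longer E2F string and the CHR string, and it had the lowest peaks of the set under INX-315 in Kuramochi.

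XRCC2, which acts with RAD51D in the BCDX2 complex, had heights of 30.3 and 41.9 in OVCAR-3 given DMSO and 94.6 and 88.0 in OVCAR-3 given INX-315. With DMSO Kuramochi gave 35.9 and 47.4, and with INX-315 it gave 131 and 148. All 4 INX-315 values were above all 4 DMSO values. The local background that the peak caller used at this promoter was 5.16 to 5.60 times the genome-wide mean in the 4 OVCAR-3 libraries and 1.25 to 2.50 times in the 4 Kuramochi libraries. The fold enrichment, which is divided by that background, was 4.40 and 6.13 in OVCAR-3 under DMSO and 8.32 and 12.4 in Kuramochi, where the heights were nearly alike. The part of the local background in the low OVCAR-3 rank of XRCC2 was not tested beyond this comparison.

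BRIP1, the BRCA1-interacting helicase, had the highest mean height of the set relative to all promoters, at percentile 94.9. It reached 70.7 and 126 in OVCAR-3 given DMSO and 206 and 297 in OVCAR-3 given INX-315. The Kuramochi DMSO libraries stood at 69.6 and 113, and those with the inhibitor at 215 and 269. The INX-315 libraries were above the DMSO libraries throughout, and the 2 lines covered nearly the same range under each treatment. The highest BRIP1 peak rested on 125 fragments (95% interval 104 to 149), the largest number in the set.

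RAD51AP1 binds DNA at the invading strand. Its height was 46.5 and 65.8 in OVCAR-3 given DMSO and 97.9 and 97.5 in OVCAR-3 given INX-315. In Kuramochi the DMSO values were 38.2 and 76.4 and the INX-315 values 86.4 and 162. The groups did not overlap, but the Kuramochi DMSO library at 76.4 came close to the INX-315 library at 86.4. The RAD51AP1 promoter is shared with C12orf4.

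RAD54L, a SWI/SNF-family translocase that drives strand invasion, had the single tallest summit. Its height was 54.6 and 45.9 in OVCAR-3 given DMSO and 114 and 166 in OVCAR-3 given INX-315. With DMSO Kuramochi gave 124 and 161, and with INX-315 it gave 289 and 394. The Kuramochi DMSO libraries stood in the range of the OVCAR-3 INX-315 libraries, so that for this gene the lines differed about as much as the treatments did.

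**Figure D2:**
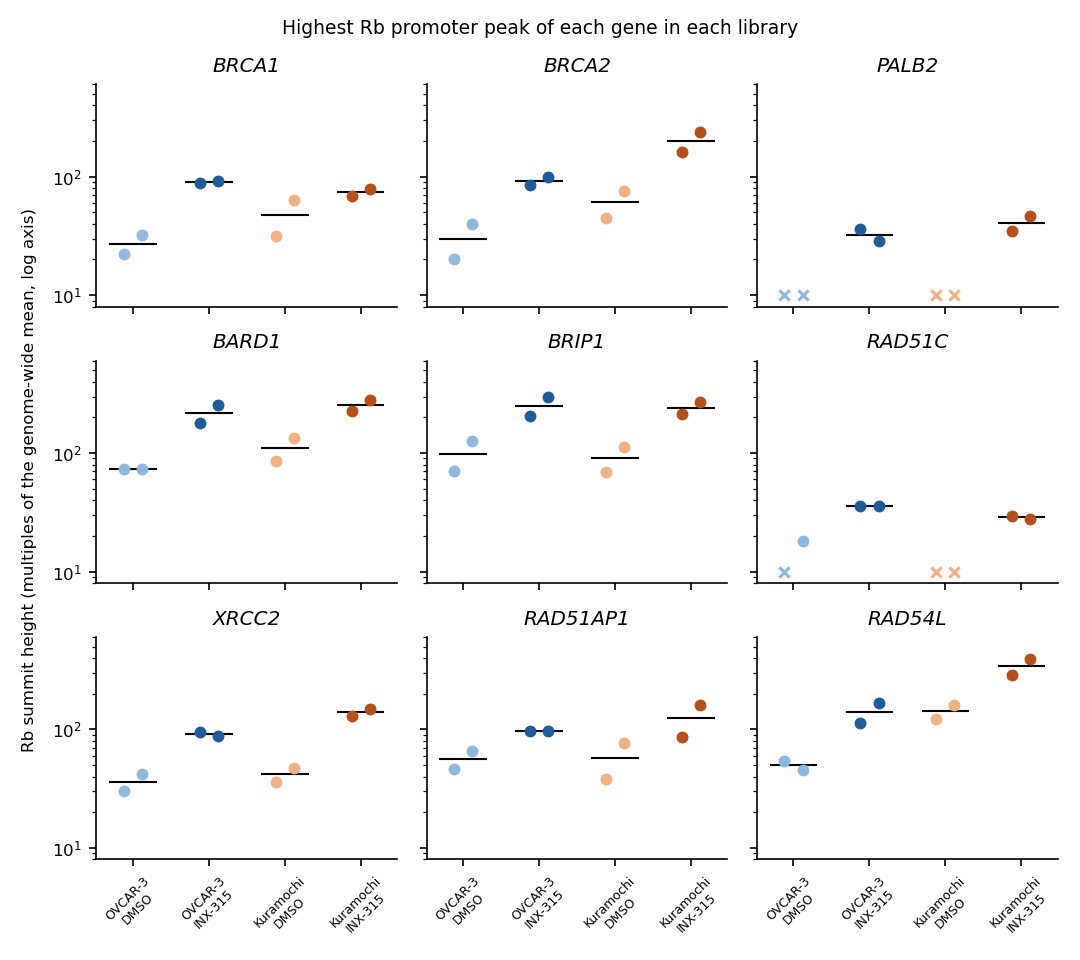
Rb summit height at each gene's highest promoter peak (y axis, multiples of the genome-wide mean, log axis) in each of the 8 Rb libraries (points), by line and treatment (x axis, colour), with the mean of 2 libraries as a line and crosses at the foot for libraries with no called peak. For the 7 genes with a value in every library, both INX-315 points lie above both DMSO points of the same line, with BRCA1 at its higher peak. The share of all genes with points apart in this way was not counted, and 99.7% of all genes tested were higher under INX-315.

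The effect of INX-315 was tested with limma on log2 summit height over the 3762 protein-coding genes with a promoter peak in all 8 libraries, with the line as covariate and Benjamini-Hochberg adjustment over all of them. PALB2 and RAD51C, which lacked a peak in some libraries, could not enter, so the fit describes promoters that were already occupied under DMSO. All 7 members tested rose, against 99.7% of all genes (3752 of 3762). BRCA2 rose by 1.71 on the log2 scale (SE 0.29, adjusted p = 1.34e-08) and XRCC2 by 1.56 (SE 0.30, adjusted p = 2.39e-07). BRIP1 rose by 1.41 (SE 0.27, adjusted p = 2.83e-07), BARD1 by 1.40 (SE 0.27, adjusted p = 4.53e-07) and RAD54L by 1.36 (SE 0.28, adjusted p = 1.12e-06). BRCA1 rose by 1.24 (SE 0.30, adjusted p = 3.19e-05) and RAD51AP1 by 0.98 (SE 0.29, adjusted p = 0.000944). With the caller's fold enrichment in place of height, RAD51AP1 alone of the 7 did not pass, at 0.56 (SE 0.32, adjusted p = 0.0865, limma). The median of the 7 was 1.40, or 2.63-fold, and the median of all genes tested was 1.64, or 3.12-fold. A higher summit in a bulk library can come from more cells with Rb at the promoter or from more Rb per cell, and these cannot be told apart.

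Within the lines, 6 of the 7 passed in each. In OVCAR-3, where 97.8% of all genes were higher, the exception was RAD51AP1, with a log2 change of 0.82 (SE 0.43, adjusted p = 0.0594 by limma). In Kuramochi, where 93.2% were higher, it was BRCA1, with 0.73 (SE 0.43, adjusted p = 0.0969 by limma) against 1.76 (SE 0.43, adjusted p = 8.61e-05) in OVCAR-3. The difference of the BRCA1 change between the lines, 1.04 on the log2 scale (SE 0.61), did not pass the test of the difference (unadjusted p = 0.0902, adjusted p = 0.998, limma). At the canonical start alone BRCA1 rose by 0.83 in both lines together (SE 0.30, adjusted p = 0.00554, limma), as did 99.7% of 3364 genes with a canonical promoter peak in all 8 libraries, with 0.96 in OVCAR-3 (SE 0.43, adjusted p = 0.0263) and 0.70 in Kuramochi, which did not pass (SE 0.43, adjusted p = 0.109). In limma's test of the difference between the lines no gene of the 3762 was called on either scaling, and 99 had an unadjusted p below 0.05, or 377 with the libraries centred as described next.

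Since nearly every promoter was higher under INX-315, the members were also set against the rest after each library was centred on its median over the promoters tested. On that scale 4.81% of all genes were higher and 9.20% lower under INX-315. Of the 7 members none was higher and 1 was lower. RAD51AP1 fell by 0.70 on the log2 scale (SE 0.20, adjusted p = 0.0155, limma), and fell by 1.02 in OVCAR-3 alone (SE 0.26, adjusted p = 0.0149), where 6.03% of all genes were lower. BRCA2 was at 0.03 (SE 0.19, adjusted p = 0.922) and XRCC2 at -0.12 (SE 0.20, adjusted p = 0.714). BRIP1 was at -0.27 (SE 0.15, adjusted p = 0.225), BARD1 at -0.28 (SE 0.14, adjusted p = 0.165), RAD54L at -0.32 (SE 0.15, adjusted p = 0.148) and BRCA1 at -0.44 (SE 0.20, adjusted p = 0.155). The median of the members was -0.28 and that of all genes -0.04. With BRCA1 read at its canonical start only, its value on this scale was -0.86 (SE 0.22, adjusted p = 0.00855, limma), where 9.51% of genes were lower, so that BRCA1 passed as lower there and not when the upstream start counted. Which of the 2 scalings is right cannot be settled from peak lists, since they hold no outside standard.

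**Figure D3:**
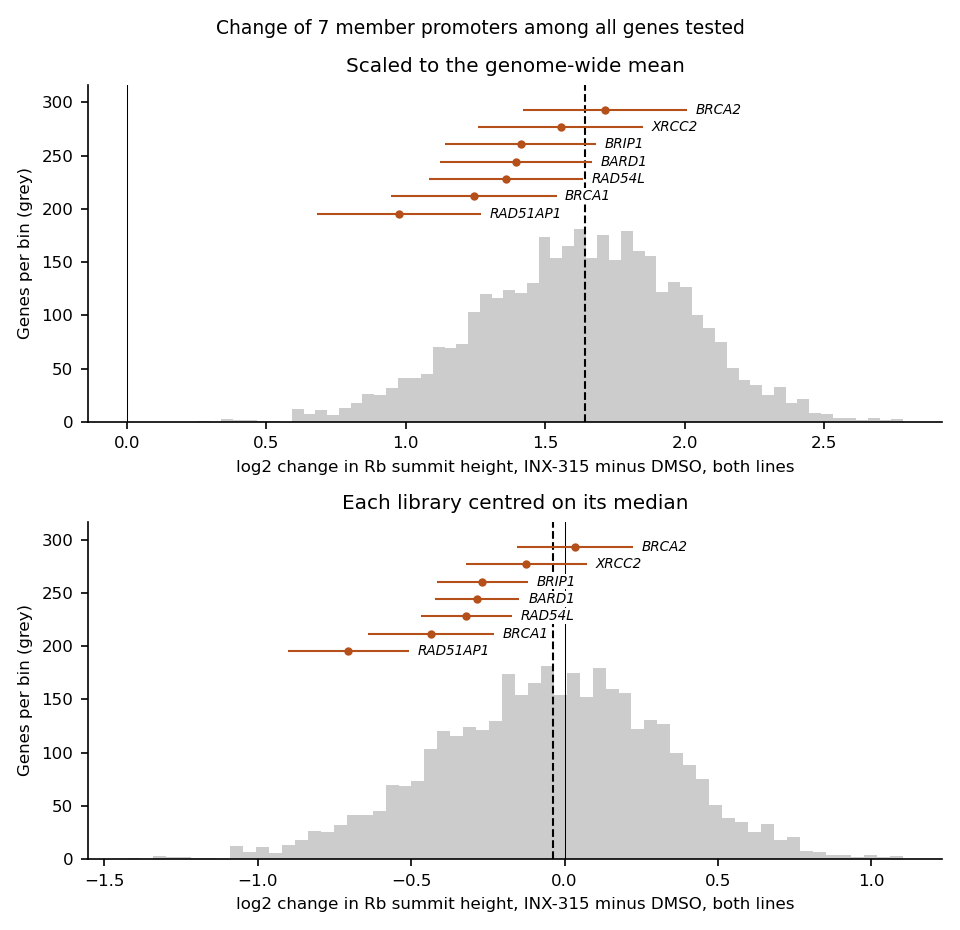
Change in Rb summit height under INX-315 (x axis, log2, both lines) for 3762 genes (grey histogram, y axis in genes per bin) and for the 7 members (points with SE, set one above the other for legibility), scaled to the genome-wide mean (top) or centred on the library median (bottom), with the median of all genes dashed. On the first scale the members lie between 0.98 and 1.71, with 6 of the 7 below the median of all genes of 1.64, and on the second 6 of 7 lie below 0.

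The lines were compared under DMSO in the same model, a contrast chosen after the data had been seen. RAD54L was lower in OVCAR-3, with a log2 difference from Kuramochi of -1.49 (SE 0.41, adjusted p = 0.00951, limma), where 5.90% of all genes were lower. With centred libraries the difference was -1.18 (SE 0.20, adjusted p = 7.28e-05), where 13.3% of all genes were lower. The difference of BRCA2 was -1.04 (SE 0.43, adjusted p = 0.120), which did not pass, and -0.73 with centred libraries (SE 0.26, adjusted p = 0.0332), which did. The other 5 did not pass on either scale, with values from -0.74 for BRCA1 to 0.09 for BRIP1 on the first. The local background at RAD54L, which enters the fold enrichment but not the height, was 2.19 to 2.50 times the genome-wide mean in Kuramochi and 1.51 to 1.80 times in OVCAR-3. It was thus higher in the line with the taller peak, and its part in the difference was not tested.

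Rank within a library's own list places a peak among the other peaks of that library. It depends on the length of the list, and the INX-315 lists, with 13031 to 17281 peaks, were longer than the DMSO lists, with 5221 to 8794, so ranks are not compared between treatments. BARD1 stayed between percentiles 95.5 and 99.2 of fold enrichment and BRIP1 between 97.3 and 99.6 in all 8 libraries. RAD54L was at 93.4 or below in OVCAR-3 and at 98.7 to 99.2 in Kuramochi, with no overlap. BRCA2 ranged from 46.7 in OVCAR-3 DMSO replicate 1 to 97.9 in Kuramochi INX-315 replicate 2, and XRCC2 from 11.5 to 92.8 between the same 2 libraries. Tested with limma in spite of this, rank passed as higher under INX-315 for 21.7% of all genes and for none of the members, and nothing is read from it.

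**Figure D4:**
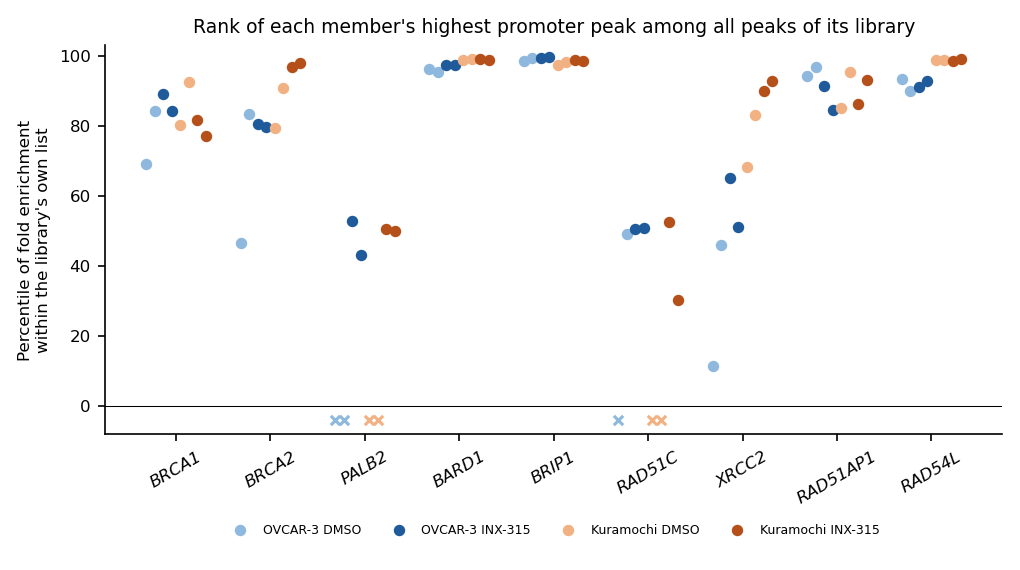
Percentile of each member's highest promoter peak among all peaks of its own library by fold enrichment (y axis), for the 9 genes (x axis) and 8 Rb libraries (points, coloured by line and treatment), with crosses below 0 where no peak was called. BARD1 and BRIP1 stay at 95.5 or above in every library, while XRCC2 spans 11.5 to 92.8.

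Peaks were also broader under INX-315. Mean width was larger in 7 of the 7 members in OVCAR-3 and in 6 of 7 in Kuramochi, against 99.0% and 95.6% of all 3762 genes tested, the exception being XRCC2 with 920.5 bp under DMSO and 918 bp under INX-315. The BARD1 peak measured 1040.5 ± 20.5 bp under DMSO and 1670 ± 46.7 bp under INX-315 in OVCAR-3 (SD, n = 2), and 1331 ± 330 bp and 1711 ± 45.3 bp in Kuramochi (SD, n = 2). The RAD51C peak stayed narrow, from 240 to 415 bp. Width was not tested, and a taller peak is called wider at the same threshold.

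To place the members among other repair genes, 61 further genes in 7 lists were read in the same way. In OVCAR-3 37 of them were bound with DMSO and 57 with the inhibitor, and in Kuramochi 38 and 56, where the shares of all protein-coding genes were 26.8% and 55.5% in OVCAR-3 and 24.9% and 53.2% in Kuramochi. All of the 32 that had a peak in all 8 libraries rose on the scale of the genome-wide mean, as did 99.7% of all genes, with a median of 1.49, and on the centred scale none was higher and 4 were lower, against 4.81% and 9.20% of all genes, with a median of -0.19. The members, at 1.40 and -0.28, lay close to these values. The shares of all genes given here hold for the lists below as well, and 16.2% of all genes in OVCAR-3 and 14.0% in Kuramochi were gained.

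Of the genes of end resection, NBN of the MRN complex rose by 2.01 on the log2 scale, the resection cofactor RBBP8 (CtIP) by 1.57 and the exonuclease EXO1 by 1.57. RAD50, the third MRN subunit with MRE11, was gained in Kuramochi, and all 6 genes of the list were bound in both lines once INX-315 was given. In the list of strand exchange factors 12 of 13 were bound in both lines once INX-315 was given. For both lists the share of all protein-coding genes was 55.5% in OVCAR-3 and 53.2% in Kuramochi. XRCC3 rose by 1.70, RAD52 by 1.57, SFR1 by 1.96, PSMC3IP by 1.04, MND1 by 1.28 and FIGNL1 by 1.78. PSMC3IP fell by 0.64 on the centred scale (adjusted p = 0.0175, limma). RAD51D, the partner of XRCC2, had a promoter peak in no library.

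In the BRCA1-A complex, which recruits BRCA1 to ubiquitin at breaks, UIMC1 (RAP80) was bound throughout and rose by 1.45. BRCC3 was gained in both lines, BABAM1 in OVCAR-3 and ABRAXAS1 in Kuramochi. The 3 subunits of RPA, which coats single-stranded DNA, were bound in every group and rose by 1.43 (RPA1), 1.91 (RPA2) and 1.30 (RPA3). Of the helicases and resolvases, BLM rose by 1.51, RMI1 by 1.48, RMI2 by 1.14, TOP3A by 1.33, GEN1 by 1.80, MUS81 by 1.31, MCM8 by 1.38 and MCM9 by 1.18. RMI2 fell by 0.54 on the centred scale (adjusted p = 0.0416, limma), and HELQ and HROB were gained in Kuramochi.

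The competing route of end joining had 14 of 16 genes bound under INX-315 in both lines, against 55.5% and 53.2% of all genes. Of its 8 genes tested, all of which rose as 99.7% of all genes did, XRCC5 (Ku80) rose by 1.23, PRKDC by 1.09, NHEJ1 by 2.08, DCLRE1C by 1.84, PAXX by 2.05, RIF1 by 1.46, SHLD2 by 1.55 and MAD2L2 by 1.90. PRKDC, the catalytic subunit of DNA-PK, fell by 0.59 on the centred scale (adjusted p = 0.00621, limma). SHLD1 was gained in OVCAR-3 and POLL had no peak in any library. Among PARP and related genes, PARP1, the main target of PARP inhibitors, rose by 1.12, PARP2 by 1.29 and the polymerase POLQ by 1.80. PARP1 fell by 0.56 on the centred scale (adjusted p = 0.0125, limma). PARG, which removes poly(ADP-ribose), was gained in both lines and LIG3 in OVCAR-3.

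**Figure D5:**
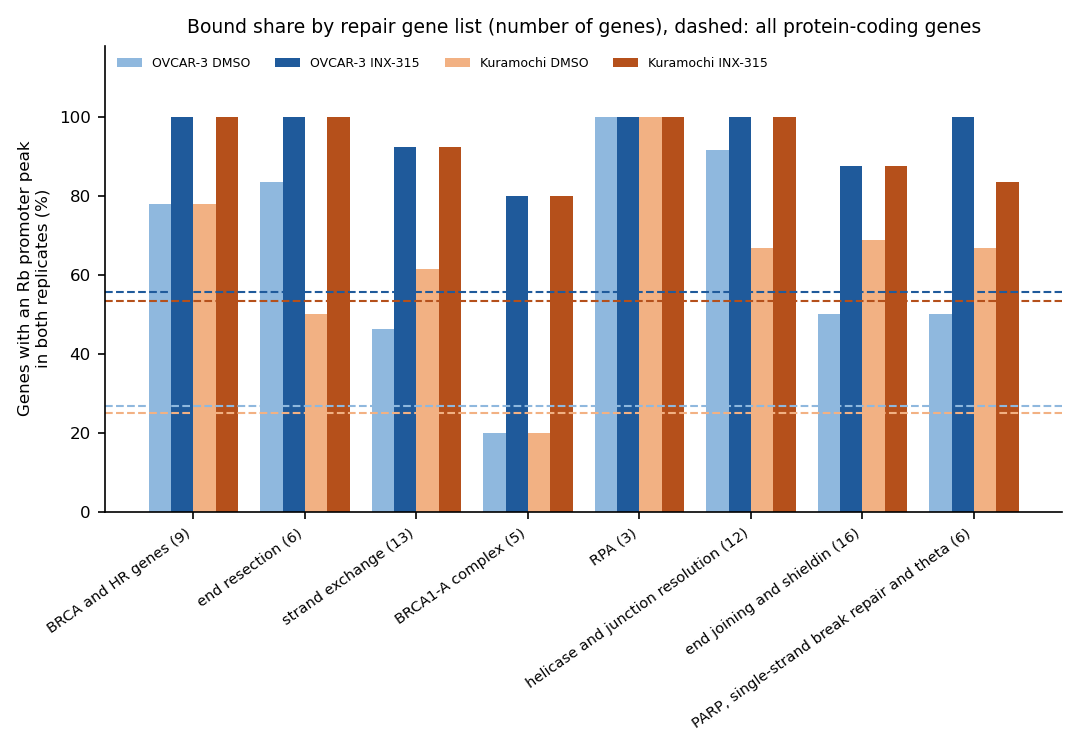
Share of genes with an Rb promoter peak in both replicates (y axis, percent) for the 9 BRCA and homologous recombination genes and 7 other repair lists (x axis, number of genes in brackets), with 1 bar per line and treatment and dashed lines at the share of all protein-coding genes. The first set stands at 7 of 9 under DMSO and 9 of 9 under INX-315 in both lines, above the dashed lines at 24.9% to 55.5%.

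The genes whose profile over the 8 libraries was most like the median profile of the 7 members tested were LMBR1, ACTR1B, C2orf92, PABPC1L and TPD52L2. Their Euclidean distance to that profile on median-centred log2 heights was 0.589, 0.680, 0.680, 0.688 and 0.700 in that order. ACTR1B and C2orf92 share 1 promoter peak and therefore 1 profile.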

How the data were processed

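Rb was profiled in 8 CUT&RUN libraries (4H1 antibody) and IgG2a in 2. Per the labels and the study's methods, the authors aligned trimmed reads to hg38 with Bowtie2 2.3.4.1, removed yeast, blacklisted and mitochondrial reads, kept duplicates, and called peaks in each library with MACS2 2.2.7.1 against the IgG2a library of the line at a q-value of 0.05. The deposited lists give each peak's position, summit offset, fold enrichment (a ratio), −log10 p-value, −log10 q-value and a score derived from the q-value. They hold no counts, so the authors' DESeq2 test on reads could not be repeated here.

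Fragments at a summit were recovered from the fold enrichment, read as (fragments + 1) / (local background + 1), and the Poisson p-value, within a relative tolerance of 3e-05. The genome-wide mean is the lowest local background shared by at least 5% of a library's peaks. Starts came from GENCODE release 44. The highest promoter peak of a gene entered limma 3.58.1 (R 4.3.3), with a mean-variance trend, line as covariate and Benjamini-Hochberg adjustment at 0.05. A 4-group model gave the values per line, their difference and the comparison of lines under DMSO. In a test on simulated data of 3762 genes, 75% of 2-fold and 100% of 4-fold changes were called and 0.197% of unchanged genes. Only 200 genes were changed there, against 3752 called higher in the main fit. Rates with most promoters changed, or with a shift common to all promoters of a library, were not tested. Named genes are all members, and of the other lists the genes without a peak, gained or past the threshold. The members and lists were chosen with earlier results of these data known. Libraries of equal replicate number were not treated as pairs in the main fit. One gene of the other lists is not reported here.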

Additional observations from a re-analysis of the deposited data

Results flagged for a closer look

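One result lay outside the promoters. RAD54L held 1 called Rb peak inside the gene and outside every annotated promoter, in an intron at chr1:46277996-46278254, in Kuramochi DMSO replicate 1 only. It had a fold enrichment of 5.53 and rested on 8 fragments, a height of 18.0 multiples of the genome-wide mean. Neither IgG2a list held a peak there, which says little, since these lists held only 257 and 195 peaks. None of the other 8 genes had a peak inside the gene and outside promoters in any library.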

How the results depend on the processing

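The scaling of heights decided the direction. With each library centred on its median, 0 members were higher and 1 was lower, and their median turned to -0.28, with BRCA1 at -0.44, BARD1 at -0.28, RAD51AP1 at -0.70, BRIP1 at -0.27, RAD54L at -0.32 and XRCC2 at -0.12, while BRCA2 was at 0.03. Reading only the canonical starts on centred heights, an alternative added after seeing the data, gave 0 higher and 2 lower, a median of -0.29, and -0.86 for BRCA1, -0.29 for BARD1, -0.71 for RAD51AP1, -0.28 for BRIP1, -0.33 for RAD54L and -0.13 for XRCC2. With the caller's fold enrichment the median was 1.06 and 6 of 7 members were higher, RAD51AP1 excepted (0.56, adjusted p = 0.0865, limma), and 3592 of 3762 genes. With rank within the list, which moves with list length, 0 members were higher, the median was 0.77 percentile points, RAD51AP1 stood at -4.04 percentile points and 817 genes were higher. The median-centred counts over all genes were 181 higher and 346 lower, or 34.3% of calls higher, against 100% on the main scale. The stricter q of 0.001, the summit inside the promoter and the canonical start left 7 of 7 members higher. With lists of equal length, 6 of 6 members tested were higher and the lines gained 0 (OVCAR-3) and 0 (Kuramochi). Leaving out each library in turn kept all 7 higher, with the median between 1.26 and 1.55. The count gained in OVCAR-3 ran from 1 to 2, with 2 when OVCAR-3 DMSO replicate 2, the DMSO library with the RAD51C peak, was left out. Gene by gene, libraries of the same number did not deviate together (correlation over 3762 genes -0.04 in OVCAR-3 and -0.01 in Kuramochi). Such a correlation cannot show a shift shared by whole libraries. A replicate block gave 7 of 7 members and 3754 genes higher, with a median of 1.40. The SE of each member was smaller with the block, as for BARD1 (0.20 against 0.27). Over a local background near the mean, summits of 4 to 5 fragments set the limit of detection under DMSO. The causes of these shifts were not tested.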
